A study of Mus musculus with 2 samples.

Results

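Stard10 and 7 genes grouped with it, Stard3, Stard3nl, Stard4, Stard5, Stard7, Stard8 and Stard9, were followed from control to TSA-treated Treg cells by their gene symbols. Of these 8 genes, 7 had a row among the 23282 rows of the deposited values, and 6 had at least 10 reads in at least 1 of the 2 libraries, as 12164 genes did in all. Stard9 had no row under this symbol and was not analysed here, and Stard8 was read 2 and 6 times. The genes were chosen by their family name, but Stard10 was singled out on its change between these same libraries, so that its difference from the others is a description and was given no test. The control library came from wild-type naïve CD4+ T cells of female C57BL/6 mice aged 7 to 10 weeks, stimulated through CD3 and CD28 and kept with TGF-β1, IL-2 and antibodies to IFN-γ and IL-4, which induce regulatory T (Treg) cells, for 1 day in the vehicle DMSO. The TSA library came from the same kind of culture with 10 μM Tubastatin A (TSA), an inhibitor of the deacetylase HDAC6. There was 1 library per condition from a bulk culture, so no value has a replicate check, a batch and the treatment cannot be told apart, and fewer cells with a transcript cannot be told apart from less of it per cell.

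Proteins of the START family carry a START (StAR-related lipid transfer) domain, a fold with a deep pocket that holds a lipid molecule and shields it from water while the protein moves it between membranes. Members differ in the lipid they carry and in what is joined to the domain: some are little more than the pocket, some anchor in a membrane, and some carry a RhoGAP, thioesterase or kinesin motor part. In T cells the supply of sterols and phospholipids is tied to activation, since a dividing cell has to build new membranes.

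The control library held 10846171 reads and the TSA library 10432643, and the median log2 change (TSA minus control) of all tested genes was 0.02. The labelled cell type was borne out by its markers, since all 12 T cell genes examined, from Cd3e and Cd4 to Foxp3, had 602 to 8851 reads in each library. Foxp3, the transcription factor that defines Treg cells, had 1633 reads in control and 965 in TSA-treated cells, and the other T cell genes with the largest changes were Cd247 (2014 and 2679), Cd3g (602 and 794) and Il2ra (8851 and 7511), all within 2-fold. Hdac6 itself had 146 and 166. Genes that mark B cells, myeloid cells, killer cells, erythroid and other cells summed to 403 reads over 28 genes in control and 430 in TSA-treated cells, a ratio of 1.06 (95% counting interval 0.920 to 1.21). Of these, 14 had at least 10 reads in a library and 3 passed 2-fold (of all tested genes, 11.5% did so upward and 3.15% downward): Flt3 had 0 and 33 reads, Hbb-bs 4 and 17, and Cd79b 11 and 4. The next largest change was that of the myeloid gene Cd68, with 32 and 19 reads. Of other myeloid genes, Lyz2 (6 and 10), Itgam (7 and 9), Cd14 (2 and 4) and Tyrobp (11 and 12) had more reads in TSA-treated cells. Fewer reads were seen there for Fcer1g (62 and 50), Csf1r (9 and 2), Adgre1 (4 and 0) and Itgax (4 and 0). The erythroid gene Hba-a1 had 28 reads in each library, unlike Hbb-bs. The markers of 1 cell type did not all go 1 way: beside Cd79b, the B cell genes Cd79a (1 and 5) and Ms4a1 (0 and 5) had more reads in TSA-treated cells and Pax5 had 0 in each, and of the killer cell genes Klrd1 had 47 and 40 reads, Ncr1 0 and 1, and Klrb1c 0 in each. These genes were named after their values were seen, and the part of other cells in the values that follow was not tested. Low counts moved unevenly between the libraries, since 285 rows had 0 reads in control and at least 10 in TSA-treated cells, against 17 rows the other way. A control value taken as 0 reads is itself a reading of the deposited values, which stood at 0.001 to 0.016 on the log2 scale wherever the TSA library had reads, while in TSA such rows stood at 0.

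Stard10 binds phosphatidylcholine and phosphatidylethanolamine and moves them between membranes, and it is best known from liver and from secreting cells. It was read 38 times in control and 213 times in TSA-treated Treg cells, which is a normalised count of 38.2 (95% Poisson interval 27.0 to 52.4) and 212 (184 to 242). The intervals of the 2 libraries lay apart. As Stard10 was chosen on this change, the separation and the ranks given below describe that choice and lend it no weight. On the deposited scale, log2 of a normalised count plus 1, its change was 2.44, a fold of 5.43, with an exact Clopper-Pearson interval of 3.92 to 8.06 that was made on the reads without the added 1 and covers counting error only. Among the 1772 other tested genes whose mean level lay within 1.5-fold of that of Stard10, 104 were higher in TSA by over 2-fold (5.87%) and 2 changed at least as far upward. Over all levels Stard10 ranked 497th of the 12164 tested genes, and 494 of the 496 genes above it had a lower mean level.

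**Figure D1:**
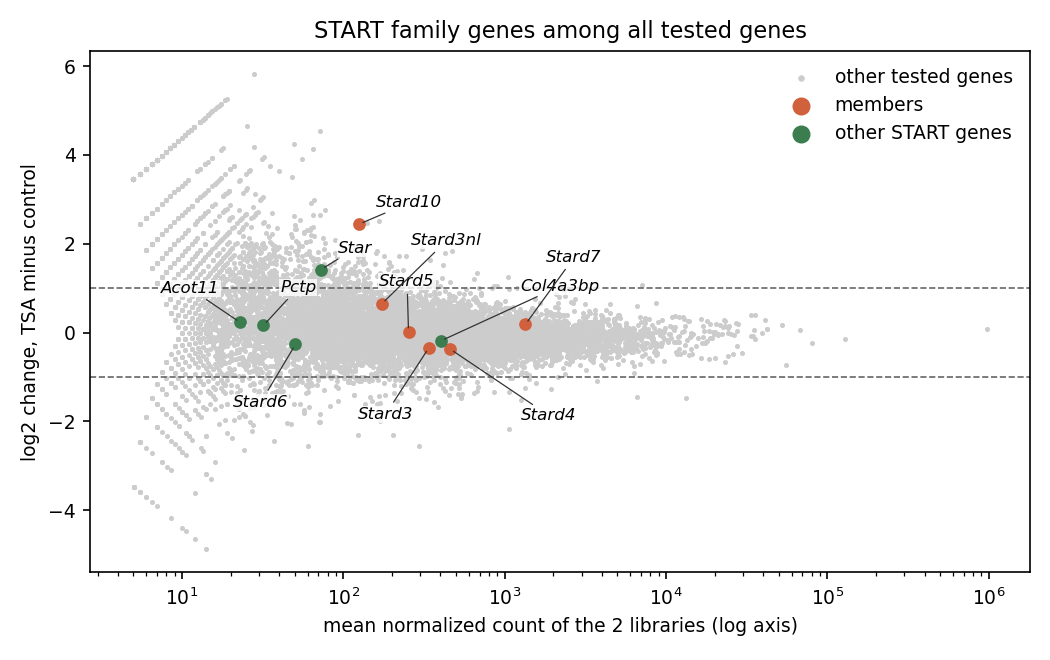
Log2 change (TSA minus control) against the mean normalised count of the 2 libraries, on a log axis, for all tested genes (grey), the tested members (orange) and other START family genes (green), with dashed lines at 2-fold. Stard10 lies at 2.44, at the upper edge of the genes at its level, Star lies at 1.42, and the other 9 named genes lie between the 2-fold lines.

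Of the 6 members that could be followed, Stard10 was the only member past 2-fold, and none was lower by 2-fold. Over all tested genes 11.5% were higher and 3.15% lower by over 2-fold, and nothing is read from the count of 1 in 6, since Stard10 was chosen on this contrast. The median log2 change of the 6 members was 0.10 and that of the 5 without Stard10 was 0.02, the same as that of all tested genes. The counting interval lay wholly above 1 for Stard10, Stard3nl and Stard7 and wholly below 1 for Stard3 and Stard4. Such an interval was common, at 28.1% of tested genes above 1 and 28% below, and it leaves out every source of spread but read sampling.

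Stard7, the closest in function to Stard10 here, carries phosphatidylcholine to and within mitochondria and is cut by the protease PARL. It was by far the most abundant member, with 1252 reads in control and 1436 in TSA-treated cells. Its log2 change was 0.18, a fold of 1.14 (1.05 to 1.23). Relative to Stard10, Stard7 transcripts were 32.9 times as many in control and 6.74 times as many in TSA-treated cells. QuantSeq reads transcripts at their poly(A) end, so a longer transcript does not give more reads and these levels were set side by side without a correction for length, though amplified copies of a molecule are counted again.

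Stard3 anchors in late endosomes and takes cholesterol from the endoplasmic reticulum, to which it is tied by the VAP proteins. It had 377 reads in control and 300 in TSA-treated cells, a log2 change of -0.34 and a fold of 0.789 (0.675 to 0.919). Stard3nl shares the membrane anchor of Stard3 but lacks the START domain, so that it is counted here by its name only, and its direction was the opposite. It was read 134 times in control and 213 times in TSA-treated cells, a log2 change of 0.65 and a fold of 1.57 (1.26 to 1.97), which was the next largest change among the tested members and short of 2-fold. Stard3nl was thus 3.52 times as high as Stard10 in control and level with it, at 213 reads each, in TSA-treated cells.

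Stard4 and Stard5 are small soluble proteins with little beyond the START domain. Stard4 moves sterols between membranes, and its gene is driven by SREBP2, the transcription factor that becomes active when sterols run low. It had 514 reads in control and 402 in TSA-treated cells, a log2 change of -0.37 and a fold of 0.775 (0.678 to 0.884), the lowest of the tested members. Stard5, which binds cholesterol and bile acids, had 251 and 256 reads, a log2 change of 0.02 and a fold of 1.01 (0.845 to 1.21). Stard5 was thus the member whose level differed least between the libraries. On the opposite strand its gene overlaps Il16 (479 and 635 reads, a fold of 1.31), and as the strand used in counting is not given in the sources used here, reads of the 2 genes cannot be told apart.

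Stard8, a RhoGAP protein with a START domain, lay at or near the floor of 3 reads in control, with 2 reads there and 6 in TSA-treated cells. Its ratio had a counting interval of 0.531 to 30.1, so a difference was not detectable at this depth. Stard9, a kinesin with a START domain, is the member without a row.

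**Figure D2:**
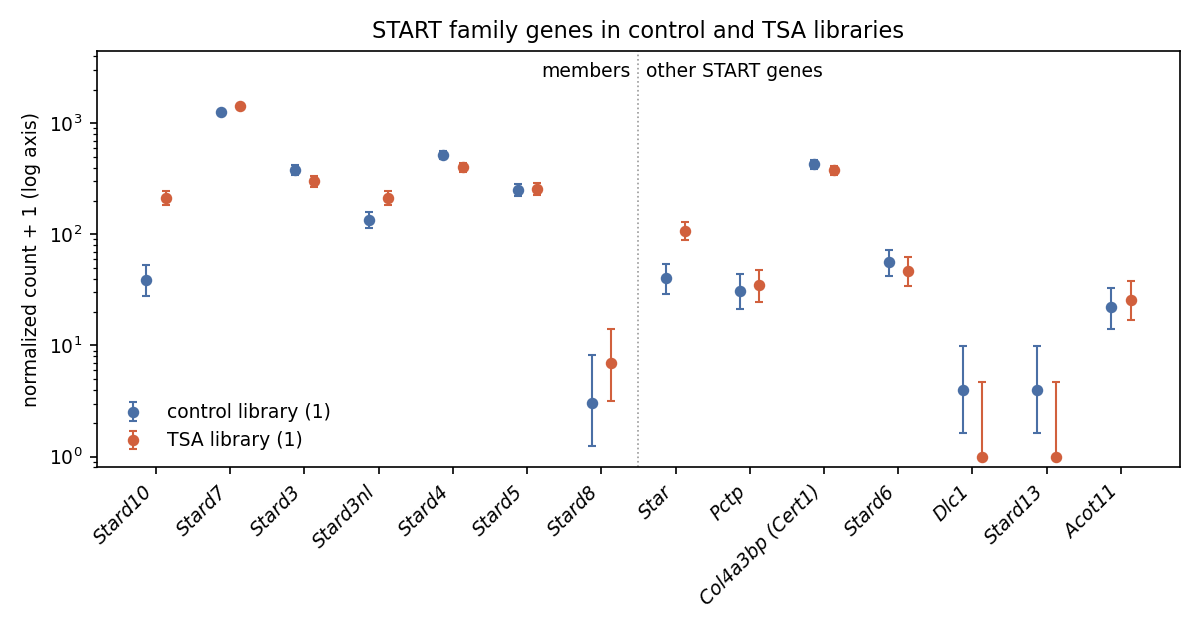
Normalised count plus 1, on a log axis, of the 7 members with a row and of 7 other START family genes in the control (blue) and TSA (orange) library, 1 each, with 95% Poisson intervals for counting error. Stard7 is the highest in each library, Stard10 moves from 38.2 to 212, and Stard8, Dlc1 and Stard13 lie at 6 reads or fewer (Acot12, at 0 in each library, is not drawn).

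In control cells the order of the levels was Stard7, Stard4, Stard3, Stard5, Stard3nl, Stard10 and Stard8, and no neighbours in this order had Poisson intervals that overlapped. In TSA-treated cells Stard7, Stard4, Stard3 and Stard5 kept their order, and Stard10 and Stard3nl stood level behind them. There the intervals of Stard3 (266 to 334) and Stard5 (224 to 288) overlapped, as did those of Stard5 and of the pair at 213 reads (184 to 242). Summed over the 7 members, the reads were 2568 in control and 2826 in TSA-treated cells, a ratio of 1.09 (1.03 to 1.15), and 1.02 (0.968 to 1.08) without Stard10. Stard10 made up 1.48% of these reads in control (exact binomial interval 1.05 to 2.03) and 7.54% in TSA-treated cells (6.59 to 8.57). The share of Stard4 was 20.02% in control and 14.2% in TSA-treated cells, and that of Stard3 was 14.7% and 10.6%. Stard7 held 48.8% and 50.8%, so about the same part of the family's reads in each library. These shares depend on Stard7: without it, Stard10 made up 2.89% and 15.3% of the reads and Stard4 39.1% and 28.9%.

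The log2 change of Stard10 exceeded that of each tested relative. The gap was 2.26 to Stard7 (SE from counting 0.26), 2.78 to Stard3 (0.28), 2.81 to Stard4 (0.27), 2.43 to Stard5 (0.28) and 1.79 to Stard3nl (0.30). These gaps describe why Stard10 was picked and have no test.

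Outside the list, 8 further genes of the START family were examined, of which 5 had at least 10 reads in a library and 1, Star, passed 2-fold upward, as 11.5% of all tested genes did. Star moves cholesterol to the inner mitochondrial membrane, where steroid synthesis begins. It was read 39 times in control and 107 times in TSA-treated cells, a log2 change of 1.42 and a fold of 2.67 (1.87 to 4.03). In control cells Star and Stard10 thus lay side by side, at 39 and 38 reads, and in TSA-treated cells Stard10 was 1.99 times as high. The gap between their changes was 1.02 on the log2 scale (SE from counting 0.37). Among the 1435 other tested genes within 1.5-fold of the mean level of Star, 12.3% were higher by over 2-fold and 70 changed at least as far upward.

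Pctp, the phosphatidylcholine transfer protein and nearest in lipid to Stard10, had 30 reads in control and 34 in TSA-treated cells. Its fold was 1.12 (0.667 to 1.90), and the change of Stard10 exceeded it by 2.28 on the log2 scale (SE from counting 0.44). Col4a3bp, also named Cert1, carries ceramide from the endoplasmic reticulum to the Golgi and had 425 and 377 reads, a fold of 0.878 (0.763 to 1.01). Stard6, known from male germ cells, had 55 and 46 reads, and the acyl-CoA thioesterase Acot11 had 21 and 25. For these 4 genes the counting interval included 1. The RhoGAP genes Dlc1 and Stard13 had 3 reads each in control and 0 in TSA-treated cells, and Acot12 had 0 in each, which allows up to 0.277 CPM (reads scaled to the library total) in control and 0.288 CPM in TSA-treated cells. The 5 tested genes had a median log2 change of 0.16, which was -0.19 over the 7 with any read and over those with a mean normalised count of at least 50.

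**Figure D3:**
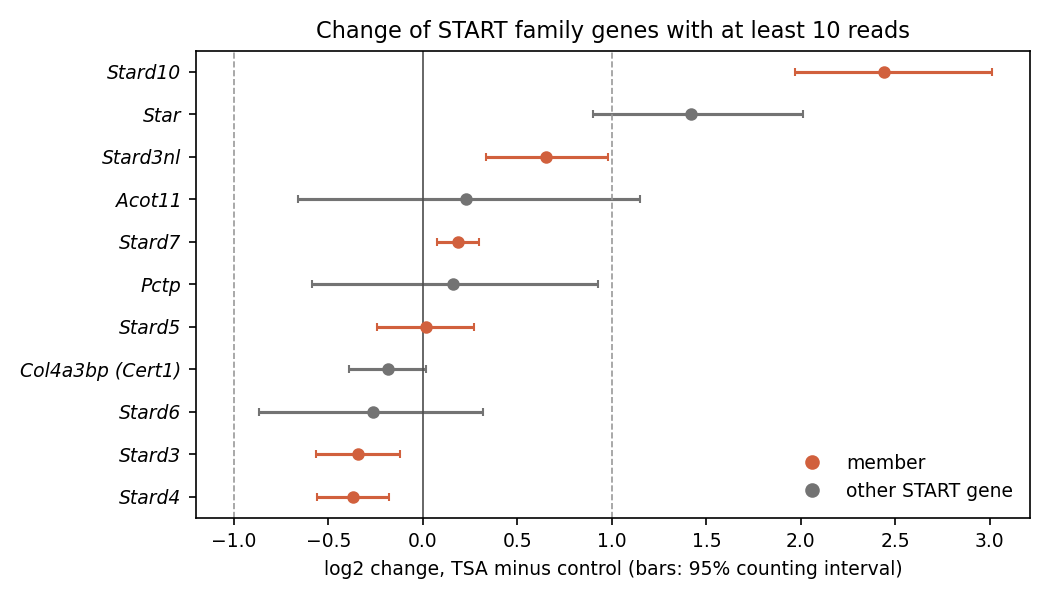
Log2 change (TSA minus control) of the 6 tested members (orange) and 5 other tested START family genes (grey), sorted by size, with 95% Clopper-Pearson counting intervals and dashed lines at 2-fold. Stard10 at 2.44 and Star at 1.42 are past 2-fold upward, Stard3 and Stard4 lie below 0 with their whole intervals, and the interval of Star reaches below the 2-fold line.

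The gene Stard10 lies at chr7:101317086-101346626 on the plus strand of GRCm38 (the same assembly as mm10, which the submitters' processing notes name), with gene models from GENCODE M21. Within its borders the annotation places the antisense gene Gm20476 and the pseudogene Gm45344, neither of which had a row. The strand of counting is not given, and any reads from these 2 cannot be told apart from those of Stard10. The nearest genes with a row stayed within 2-fold. Atg16l2, upstream on the opposite strand, had 368 and 375 reads (a fold of 1.01), and Arap1, which starts 1441 bases beyond the end of Stard10 on the same strand, had 230 and 293 (1.26, with an interval of 1.06 to 1.51). Stard7 lies at chr2:127270218-127298932 and Stard5 at chr7:83631959-83653127, also on the plus strand, Stard3 at chr11:98358368-98381112 on the plus strand, and Stard3nl at chr13:19357676-19395795 on the minus strand. Of the 16 nearest genes with a row around the 8 members, 9 were tested and 1 passed 2-fold upward, about the 11.5% of all tested genes: Efnb1, beside Stard8, had 42 and 123 reads. On the other side of Stard8, Yipf6 had 201 and 170. Around Stard7, Tmem127 had 345 and 383 and Dusp2 5000 and 4955, and Camk4, beside Stard4, had 572 and 710. Around Stard9, Haus2 had 282 and 234, Ttbk2 53 and 43, and Cdan1, which overlaps it on the opposite strand, 105 and 67. The 7 nearest genes that were not tested (1700003D09Rik, Tcap, Amph, 9330199G10Rik, Nrep, Tmc3 and Cemip) had 8 reads or fewer.

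Promoters of 6 members were found in the RefSeq promoter table of GRCm38.p6, which spans 250 bases before to 50 after a transcript start, and those of Stard3nl and Stard4 were not. The promoter of Stard10 is shown with those of Stard7, its neighbour in function, and Stard5, the member that differed least, because they differ in CpG content. Each is written from 5′ to 3′ on the plus strand with every CpG in capitals, and they lie at chr7:101316836-101317135 (Stard10), chr2:127269979-127270278 (Stard7) and chr7:83631767-83632066 (Stard5).
Stard10: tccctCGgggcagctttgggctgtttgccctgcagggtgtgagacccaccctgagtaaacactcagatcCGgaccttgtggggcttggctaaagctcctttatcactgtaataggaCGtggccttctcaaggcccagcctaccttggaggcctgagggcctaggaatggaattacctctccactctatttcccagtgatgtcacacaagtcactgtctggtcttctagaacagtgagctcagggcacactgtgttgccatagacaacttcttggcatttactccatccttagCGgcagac
Stard7: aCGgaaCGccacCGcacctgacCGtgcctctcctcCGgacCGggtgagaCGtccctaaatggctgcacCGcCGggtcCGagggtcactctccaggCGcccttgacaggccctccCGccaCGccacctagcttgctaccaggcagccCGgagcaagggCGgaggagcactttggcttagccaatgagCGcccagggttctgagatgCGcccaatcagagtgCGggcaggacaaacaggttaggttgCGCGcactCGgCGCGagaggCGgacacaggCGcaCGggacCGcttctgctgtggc
Stard5: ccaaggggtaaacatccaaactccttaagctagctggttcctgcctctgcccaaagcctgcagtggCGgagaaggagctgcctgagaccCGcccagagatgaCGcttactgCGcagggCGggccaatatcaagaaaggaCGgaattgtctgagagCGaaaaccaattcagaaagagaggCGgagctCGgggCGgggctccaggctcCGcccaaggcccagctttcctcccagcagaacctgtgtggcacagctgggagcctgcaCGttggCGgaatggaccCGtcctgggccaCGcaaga
Stard10 held 4 CpG, Stard7 27 and Stard5 15.

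The promoter of Stard10 was the poorest in CpG of the 6, since the others held 9 (Stard8) to 27 (Stard7), with 23 in Stard3 and 20 in Stard9. In the whole table of 32851 promoters, 38.04% had 4 CpG or fewer, and the median was 7. Searched on both strands for the motifs GGGCGG (known from Sp1 sites), CCAAT (from NF-Y sites), TATAAA (for the basal machinery), CACGTG (from E-box sites) and TGACGT (the core of a cyclic AMP response element), none of which contains another, the promoter of Stard10 held none of the 5, as did 28.9% of all promoters. The other 5 member promoters each held both GGGCGG and CCAAT, which occur in 35.7% and 37.4% of all promoters. TATAAA (13.6% of all promoters), CACGTG (7.15%) and TGACGT (7.51%) were in none of the 6. These matches describe letters in a short window and are not binding sites.

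**Figure D4:**
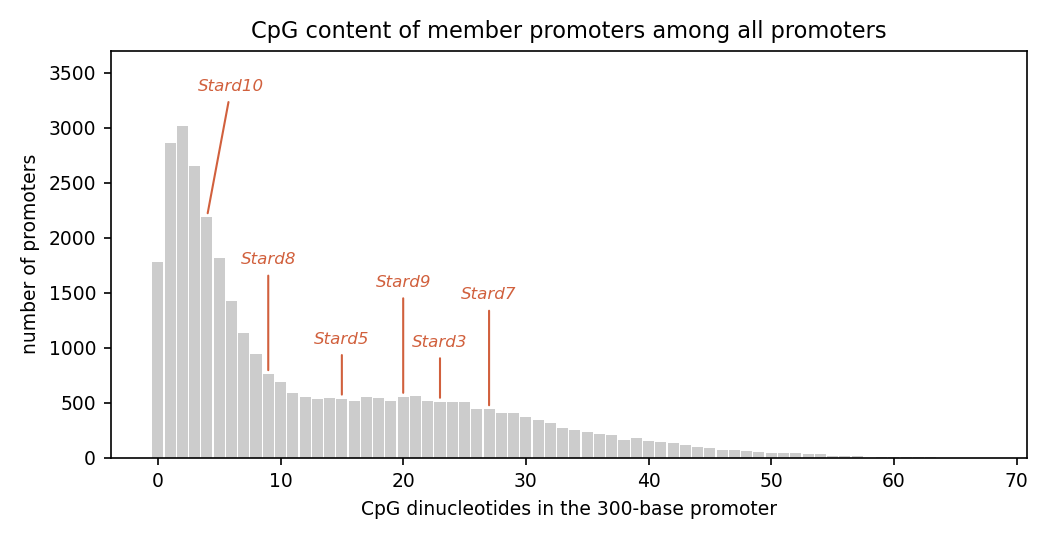
Number of promoters (vertical axis) by CpG dinucleotides in the 300-base promoter (horizontal axis) for all 32851 promoters of the table, with the 6 members that have a promoter marked. Stard10, at 4, lies in the tall CpG-poor part of the distribution, and Stard8, Stard5, Stard9, Stard3 and Stard7 lie at 9 to 27.

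Genes that moved most like Stard10 were sought by the distance of their 2 deposited log2 values from those of Stard10, which rests on 2 libraries only. The 5 nearest were Rab34 (42 and 239 reads), a small GTPase of the Golgi and cilium, Sbf2 (48 and 190), a myotubularin-related protein, Gsn (49 and 182), the actin-severing protein gelsolin, H2-Ab1 (42 and 157), an MHC class II chain of antigen-presenting cells, and Ccdc112 (53 and 198). Their distances ran from 0.22 (Rab34) to 0.48 (Ccdc112). The change of Rab34 was 2.47 on the log2 scale, beside 2.44 for Stard10, and those of the other 4 ran from 1.86 to 1.95.

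Lipid transfer proteins of other families were compared from a list of 42 genes, of which 38 were tested. Their median log2 change was 0.06, with 3 past 2-fold upward and 1 downward, where 11.5% and 3.15% of all tested genes were. Plekha8, which carries glucosylceramide from the Golgi, had 84 reads in control and 181 in TSA-treated cells (a fold of 2.12). The other 3 had few reads: Prelid3a (listed as Slmo1), of the mitochondrial lipid transfer proteins, had 6 and 18, the sterol transporter Gramd1c had 10 and 24, and the oxysterol-binding protein Osbpl1a had 15 and 7. None reached the change of Stard10.

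The proteins that dock or process START members numbered 9, all tested, with a median of -0.07 and 1 past 2-fold upward, about the 11.5% of all tested genes. That gene was Mospd2, which tethers endosomes to the endoplasmic reticulum through the same kind of motif recognition as the VAP proteins, with 32 reads in control and 74 in TSA-treated cells (2.25, interval 1.49 to 3.58). Vapa, the docking partner of Stard3, had 1707 and 1389 reads (0.806), and Vapb had 656 and 760 (1.15). Phb2, a mitochondrial inner membrane scaffold, had 6773 and 5852 (0.856). Vapa and Vapb thus differed from each other in direction, both within 2-fold.

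Stard4 shares its regulator with the genes of sterol synthesis, and 25 SREBP2 target genes, all tested, were lower more often than higher: 20 against 5, with a median log2 change of -0.18 (6246 of all tested genes were higher and 5910 lower), and 17 against 8 under scaling by total reads or by upper quartile. None passed 2-fold in either direction, where 11.5% of all tested genes did so upward and 3.15% downward. The counting interval lay wholly below 1 for 13 of the 25 and wholly above 1 for 0, where 28% and 28.1% of all tested genes did so. These shares were not matched for level, and intervals narrow as reads rise. Among genes with a mean normalised count of at least 50, the median was -0.23 for the list and -0.04 for all genes. Lss, which closes the sterol ring, had 179 reads in control and 90 in TSA-treated cells (0.501), just short of 2-fold. Srebf2, the gene of SREBP2 itself, had 1579 and 958 reads (0.601), Idi1 590 and 368 (0.618) and Sc5d 772 and 524 (0.673). Summed over the list, the ratio was 0.842 (0.824 to 0.861), and Stard4 at 0.775 lay on the same side.

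The phosphatidylcholine and phosphatidylethanolamine that Stard10 binds are made by enzymes of which 16 of 18 listed were tested, with a median of 0.04 (-0.06 over those with at least 10 reads in both libraries) and 3 past 2-fold, all upward (11.5% of all tested genes were), or 0 when both libraries had to hold at least 10 reads, a filter that left 4.80% of all genes past 2-fold upward. These 3, the ethanolamine kinase Etnk2 (14 reads), the acyltransferase Lpcat2 (14) and the choline pathway enzyme Pcyt1b (10), were taken as 0 reads in control, as were 282 other rows with at least 10 reads in TSA-treated cells. Against the floor of 3 reads in the control library they were at least 4.62-fold higher (Etnk2 and Lpcat2) and at least 3.30-fold higher (Pcyt1b) with the TSA reads taken as exact, their counting intervals began at 3.28 and 2.22, and the median of the list was 0.04 with these bounds too. Pemt, which methylates phosphatidylethanolamine to phosphatidylcholine, had 52 reads in control and 31 in TSA-treated cells (0.598). Pemt and the other 12 tested enzymes stayed within 2-fold.

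**Figure D5:**
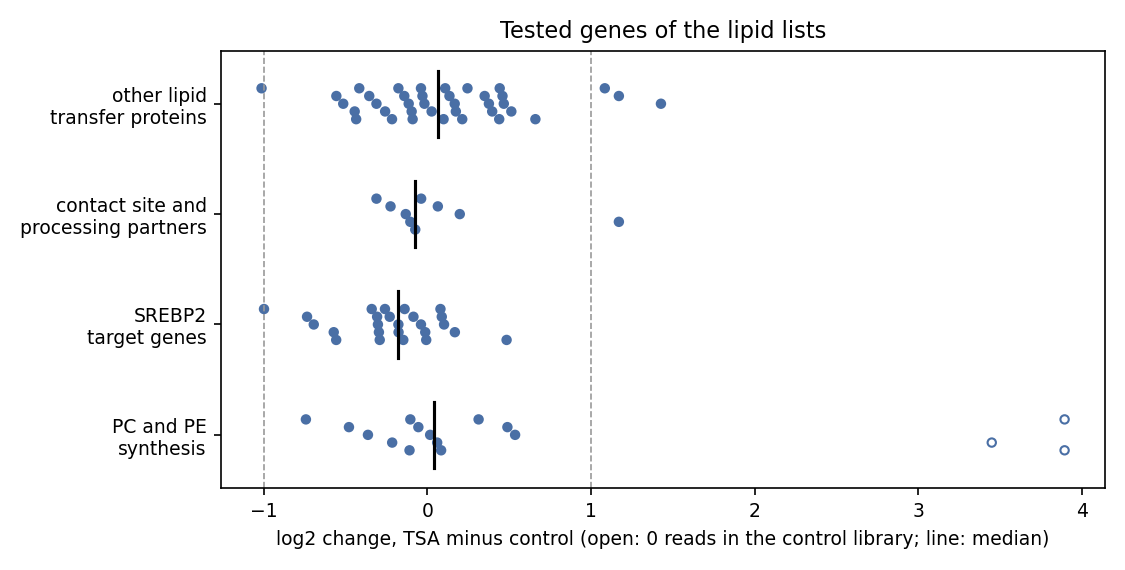
Log2 change (TSA minus control, horizontal axis) of the tested genes in 4 lists, 38 other lipid transfer proteins, 9 contact site and processing partners, 25 SREBP2 target genes and 16 enzymes of phosphatidylcholine (PC) and phosphatidylethanolamine (PE) synthesis, with black lines at the medians and dashed lines at 2-fold. The SREBP2 target genes lie mostly below 0, with a median of -0.18, and the open circles are the 3 enzymes without a control read.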

How the data were processed

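The members and gene lists were chosen with earlier results of these data known. The authors prepared the libraries with a QuantSeq kit and used ExDEGA on the 75-nt single-end reads of a NextSeq instrument. The submitters' processing notes name Bowtie2, bedtools and mm10. The annotation, the strand of counting and the normalization are not given in the sources used here. The deposited values are log2 of a normalised count plus 1, as found from the values: taken back, they fell on steps of 1.005 (control) and 0.995 (TSA), and over 99.9% of rows with 1 to 300 reads lay within 0.1 of a whole read. Reads were recovered by rounding.

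The change of a gene is its deposited log2 value in TSA minus control. A gene counted as tested when either library held 10 or more of its reads, and 2-fold was the threshold. Intervals (95%, Clopper-Pearson or Poisson) and the floor of 3 reads cover counting error only, and reads without molecular identifiers are not independent molecules. With 1 library per condition no p-value was computed. Named were all members and START relatives, every list gene past 2-fold and, in lists with fewer than 4 of these, those with the largest changes up to 4, the nearest and overlapping genes of members that had a row, and the 5 genes most like Stard10. Alternatives covered scaling, pseudocount (0.1 and 5), filter and threshold. The steps, run in Python 3.11.15 with numpy 2.4.6, scipy 1.17.1, pandas 2.3.3 and matplotlib 3.10.9, were tested on simulated data.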

Additional observations from a re-analysis of the deposited data

How the results depend on the processing

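The log2 change of each of the 11 tested members and START relatives kept its sign under 6 alternatives (4 scalings and pseudocounts of 0.1 and 5). That of Stard10 ran from 2.33 to 2.51, and the scalings moved the median of all tested genes by at most 0.07. Stard10 stayed past 2-fold under each alternative for the members' count. With no filter on low counts the members past 2-fold upward numbered 2 and the START relatives and the phosphatidylcholine and phosphatidylethanolamine enzymes past 2-fold downward 2 each (18.02% of all genes were then higher and 7.68% lower). At 1.5-fold, 2 members were higher, 3 SREBP2 target genes lower and 1 such enzyme lower (18.7% and 8.34% of all genes). When the whole 95% interval had to lie beyond 2-fold, 0 START relatives, 0 other lipid transfer proteins and 0 contact site partners were higher. Of all genes, 4.97% were then higher. With at least 10 reads in both libraries or a mean normalised count of at least 50, 0 of the enzymes were higher, and at that mean 1 other lipid transfer protein was. Under these 2 filters 4.80% and 2.96% of all genes were higher. The only such protein past 2-fold downward, Osbpl1a, was lost (0) under these filters, the interval, a pseudocount of 5 and scaling by total reads or upper quartile. Between 0.814% and 2.80% of all genes were lower under these settings. With scaling by median of ratios or a pseudocount of 0.1, 1 SREBP2 target gene was past 2-fold downward, as were 3.16% and 3.39% of all genes. No call past 2-fold turned its direction, but list medians near 0 changed sign: that of the T cell markers went from -0.04 to 0.03 with scaling by total reads and 0.0047 by upper quartile, that of the START relatives was -0.19 with no filter and at a mean of at least 50, and that of the enzymes -0.02 with no filter and -0.06 with at least 10 reads in both libraries or that mean. No paired analysis was possible because each condition had only 1 library, and no replicate could be left out. Depth limits Stard8, Dlc1, Stard13 and Acot12, which had 6 reads or fewer.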

Other observations

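The promoter listed for Stard10 holds few CpG, and whether its start is the one used in these cells was not tested. Across the 7329 tested genes with a promoter in the table, the share higher in TSA by over 2-fold differed with CpG content. It was 29.2% of 518 genes with 0 to 4 CpG, 15.3% of 1460 genes with 5 to 14 and 7.48% of 5351 genes with 15 or more. The CpG-poor genes were also the lower expressed, with median normalised counts of 34.8, 132 and 333 in the 3 classes. Among genes with a mean normalised count of at least 50, the shares were 8.48% of 224, 3.63% of 991 and 2.27% of 4542. The classes still differed in level there, with medians of 207, 301 and 439, so the filter did not remove that difference. The shares lower by over 2-fold were 5.41%, 3.90% and 2.15% of the tested genes, and 2.23%, 1.21% and 1.17% at a mean of at least 50. The comparison was chosen after the CpG content of the Stard10 promoter was seen, genes are not replicates, and it has no test.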
